A study of Mus musculus with 14 samples.

Results

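Receptors for the transmitters glutamate, GABA, glycine and acetylcholine were followed through 3 stages of medulloblastoma development in the mouse cerebellum. The genes were all those measured by a probe set with 1 gene symbol beginning with a receptor subunit name (Gria, Grin, Grik, Grid, Grm, Gabr, Glr, Chrn or Chrm) or with Cbln, the cerebellins. The rule gave 46 probe sets for 36 genes of 8251 genes on the array, and each gene was represented by its probe set with the highest mean. RNA came from 14 samples of dissociated cerebellum of mice heterozygous for patched (Ptch1, the receptor that restrains hedgehog signalling), a line kept by breeding to 129X1/SvJ. The stages were granule cell precursors (GCP) at 7 days of age (n = 4), preneoplastic cells (pretumor) at 6 weeks (n = 5), and tumor cells at 10 to 25 weeks from mice with signs of medulloblastoma (n = 5). All samples were papain-digested suspensions taken from between 35% and 65% Percoll steps without sorting, so they can hold any cell type of that density. Age and stage change together and cannot be told apart. Nothing in the labels ties each sample to its own animal; the p-values rest on sample-to-sample spread, part of which may be technical.

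AMPA, NMDA and kainate receptors are glutamate-gated channels built of 4 subunits, and the AMPA type carries most fast excitation in the brain. GABA-A and glycine receptors are chloride channels that mostly inhibit mature neurons and can excite young ones. Nicotinic receptors are cation channels for acetylcholine, while metabotropic glutamate receptors and muscarinic receptors signal through G proteins. In the cerebellum, granule neurons receive glutamate from mossy fibres and GABA from Golgi cells as they mature, and secrete Cbln1, which ties their axons to Purkinje cells. Bergmann glia, the astrocytes around Purkinje cells, carry AMPA receptors without the Gria2 subunit.

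Levels are log2 intensities. An intensity of 16, or 4 on the log2 scale, is used as the upper edge of a low band near the smallest values, taken to lie near background. Of the 36 receptor genes, 32 (88.9%) never reached 16 on any of the 14 arrays, against 4894 of 8251 genes (59.3%) on the array. The 4 that did were the AMPA subunits Gria1 and Gria2, the GABA-A subunit Gabrb1 and the glycine receptor subunit Glrb. All 4 reached 16 on every GCP and pretumor array. Only Gria2 and Glrb did so on every tumor array, so that 2 or 3 of the 36 genes were at or above 16 on each tumor array. The low-band genes ran from 1.30, the lowest value after flooring, to 4.00, with a median of 1.69. In this band an absent signal and a weakly hybridising probe set cannot be told apart.

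**Figure D1:**
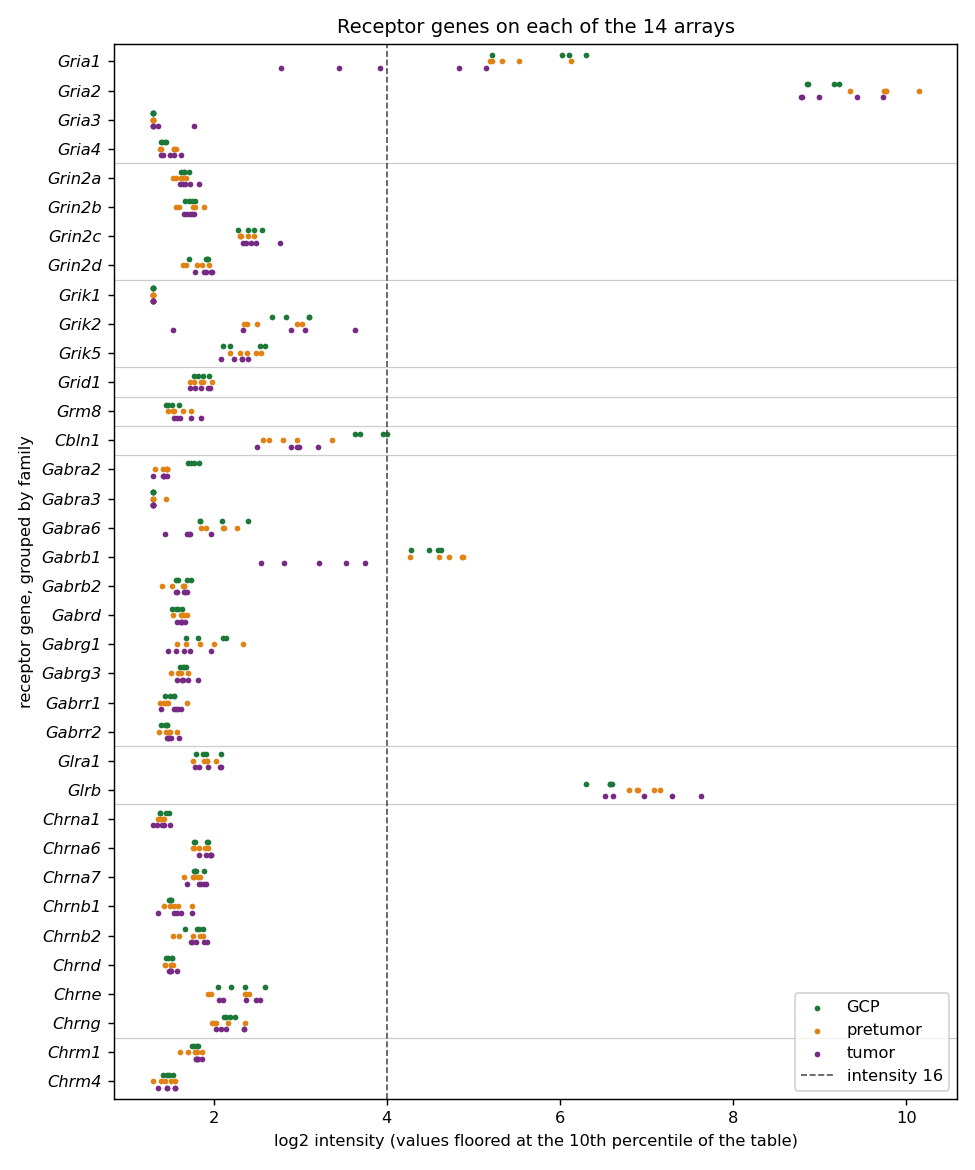
Log2 intensity (horizontal axis) of the 36 receptor genes on each array, grouped by family with grey lines between families; each point is 1 array, and the dashed line marks intensity 16. Gria1, Gria2, Gabrb1 and Glrb lie at or right of the line in GCP and pretumor samples, and 32 genes stay left of it on all 14 arrays.

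No receptor gene was called higher in any comparison at the settings used here, and those called were lower at the later stage. Under 5 other settings 1 or 2 receptor genes were called higher in pretumor against GCP, Gria2 in each and Glrb in 1, as given with those genes. Differences were tested with limma over all 12422 probe sets and called at a Benjamini-Hochberg adjusted p under 0.05. In pretumor against GCP 2 of 36 receptor genes fell (5.56%), Cbln1 and Gabra2, where 5.24% of all genes were called and 3.25% were lower. In tumor against GCP 4 of 36 fell (11.1%), Cbln1, Gabra2, Gabrb1 and Gria1, where 5.62% of all genes were called and 3.93% were lower. In tumor against pretumor 1 of 36 fell (2.78%), Gabrb1, where 1.09% of all genes were called and 0.957% were lower. Among genes that reached 16 the shares called were 8.88%, 10.2% and 1.85%, and among those that never did 2.74%, 2.51% and 0.572%. Before adjustment 4, 7 and 5 receptor genes had a p under 0.05. The share of all genes at that limit was not counted, so these counts cannot be set against it. The share called in pretumor against GCP lies close to the background, and the others rest on 4 genes and 1 gene. The median difference over the 36 genes was -0.02, 0.02 and 0.04, against -0.01, 0.00 and 0.02 over all genes. The groups did not overlap in 4, 4 and 2 of the 36 genes (11.1%, 11.1% and 5.56%), against 12.1%, 9.53% and 2.75% of all genes. Comparisons against GCP share the GCP arrays, and both comparisons of the tumor share the tumor arrays.

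The arrays were alike in overall level, with median intensities, on the linear scale, between 4.11 and 4.39 and between 29.2% and 29.8% of probe sets at 16 or more. The GCP arrays resembled each other in pairs, GCP 1 with GCP 2 (r = 0.9977 over all probe sets) and GCP 3 with GCP 4 (r = 0.9975), against 0.9939 to 0.9956 across pairs. With each pair averaged to 1 value, which leaves 2 GCP values, the called receptor genes were 1 in pretumor against GCP, 1 in tumor against GCP and 1 in tumor against pretumor. Among markers of the named cell type, Zic1 stood at 12.74 ± 0.11, 12.59 ± 0.16 and 12.64 ± 0.21 (SD) in GCP, pretumor and tumor samples and the division marker Mki67 at 10.51 ± 0.17, 10.36 ± 0.32 and 10.47 ± 0.65. Pax6, of the same list of 12 measured markers, was the only 1 called. It was lower at both later stages against GCP, at 10.54 ± 0.21, 8.80 ± 0.75 and 8.31 ± 0.33. Atoh1, which defines granule cell precursors, stayed in the low band on all arrays.

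Gabrb1 encodes the beta1 subunit of the GABA-A receptor, whose beta subunits help form the GABA site. It was lower in tumor samples than in both other stages. In GCP 1 to 4 it stood at 4.60, 4.62, 4.28 and 4.49, and in pretumor 1 to 5 at 4.86, 4.88, 4.27, 4.72 and 4.60. In tumor 1 to 5 it stood at 3.53, 3.75, 2.81, 2.54 and 3.22. Each tumor array lay below each array of the other stages and in the low band, while GCP and pretumor arrays overlapped. The group means were 4.50 ± 0.16, 4.67 ± 0.25 and 3.17 ± 0.50 (SD, n = 4, 5 and 5). Tumor samples were lower than pretumor samples by 1.50 on the log2 scale (95% interval -1.96 to -1.04, limma adjusted p = 0.00496), a fall of at least 1.59-fold when the tumor mean is set to 16. They were lower than GCP samples by 1.33 (95% interval -1.82 to -0.84, adjusted p = 0.00523), at least 1.41-fold. Pretumor and GCP samples differed by 0.17 (95% interval -0.32 to 0.66, adjusted p = 0.849). The call against pretumor held under the 27 alternative settings tried (adjusted p up to 0.0441). The call against GCP ended with all values below 16 raised to 16 (adjusted p = 0.0597) and with the GCP pairs averaged (adjusted p = 0.0676), and its adjusted p ran from 0.000287 to 0.0676 over 27 settings.

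Several astrocyte and Bergmann glia markers fell with Gabrb1 in tumor samples. Of 11 measured markers, 7 fell in tumor against GCP and 4 fell in tumor against pretumor. In pretumor against GCP 1 rose, Aldoc, and 1 fell, Fabp7. Hopx, which is high in Bergmann glia, stood at 7.91 ± 0.17, 7.42 ± 0.25 and 5.38 ± 0.50 in GCP, pretumor and tumor samples, and Gja1, a gap junction protein of astrocytes, at 9.43 ± 0.29, 8.93 ± 0.25 and 6.83 ± 1.10. The summed intensity of the list was 11350 to 15030 on GCP arrays, 3198 to 4019 on pretumor arrays and 1253 to 2722 on tumor arrays. Most of the drop from GCP to pretumor, where Gabrb1 was not called, lay in Fabp7 (13.24 ± 0.22 to 9.78 ± 0.40), and without it the sums were 2994 to 4095, 2405 to 2978 and 658.9 to 1183. The highest gene left in these sums was Septin4, at 10.48 ± 0.04, 10.68 ± 0.15 and 9.12 ± 0.38. Aqp4 stood at 9.19 ± 0.79, 6.52 ± 0.40 and 3.91 ± 1.82. Its GCP arrays lay above all its pretumor arrays, but it was called only in tumor against GCP. Gfap of the same list did not fall, at 1.82 ± 0.13 in pretumor and 2.79 ± 1.15 in tumor samples (adjusted p = 0.422), and Slc1a2 never reached 16. Of 10 oligodendrocyte markers 5 fell in tumor against pretumor (Mbp, Mog, Mag, Mal and Car2), with summed intensities of 678.2 to 1431 against 134.6 to 273.1. In pretumor against GCP, where Gabrb1 was not called, 4 of the 10 rose (Mog, Mag, Mal and Car2), and the GCP sums were 246.9 to 346.1. Of the list 5 never reached 16 (Mag, Mobp, Cnp, Sox10 and Ugt8a). The part of these cells in the Gabrb1 result was not tested. In such mixed samples fewer cells of a type and less RNA per cell cannot be told apart.

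The start regions of Gabrb1 are shown because it is the receptor gene called in both comparisons of the tumor, and those of Gria2 and Glrb because these stayed above 16 on every array. RefSeq's table (GRCm38.p6) held starts for 24 of the 36 genes, with a pair of starts for Gabrb1. Each line gives the 250 bases before a start, 5′ to 3′, and capitals mark matches on either strand to any of 5 short motifs: GGGCGG (GC box), GCGCATG (NRF1 half-site), TGACG (CRE half-site), CCAAT and TATAAA.
Gabrb1 first start, chr5:71657671-71657920, plus strand: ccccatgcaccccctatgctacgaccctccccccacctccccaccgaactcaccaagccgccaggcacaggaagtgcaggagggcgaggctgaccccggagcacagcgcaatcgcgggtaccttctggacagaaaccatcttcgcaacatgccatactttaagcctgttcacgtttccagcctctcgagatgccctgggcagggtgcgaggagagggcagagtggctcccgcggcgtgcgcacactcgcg
Gabrb1 second start, chr5:71699682-71699931, plus strand: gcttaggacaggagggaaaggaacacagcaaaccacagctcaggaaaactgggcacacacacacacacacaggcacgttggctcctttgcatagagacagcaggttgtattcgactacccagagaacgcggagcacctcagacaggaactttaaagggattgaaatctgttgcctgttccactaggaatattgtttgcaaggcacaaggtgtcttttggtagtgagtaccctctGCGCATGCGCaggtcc
Gria2, chr3:80802836-80803085, minus strand: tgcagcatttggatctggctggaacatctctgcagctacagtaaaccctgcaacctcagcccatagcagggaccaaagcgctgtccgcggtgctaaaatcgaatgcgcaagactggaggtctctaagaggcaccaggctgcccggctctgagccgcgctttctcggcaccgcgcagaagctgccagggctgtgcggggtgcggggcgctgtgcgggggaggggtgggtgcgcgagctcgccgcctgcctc
Glrb, chr3:80913661-80913910, minus strand: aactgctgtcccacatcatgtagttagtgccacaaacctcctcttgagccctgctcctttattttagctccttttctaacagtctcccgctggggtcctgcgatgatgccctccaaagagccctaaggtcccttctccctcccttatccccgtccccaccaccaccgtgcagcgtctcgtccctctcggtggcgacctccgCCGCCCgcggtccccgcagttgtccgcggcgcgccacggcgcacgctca
The second Gabrb1 window held GCGCATG on both strands, as a pair of overlapping matches that begin 16 and 13 bases before the start. That motif was in 3.24% of the 32851 windows of this length in the table. Glrb held 1 GC box, 49 bases before its start, a motif in 32.7% of all windows. The first Gabrb1 window and the Gria2 window held none of the 5. CCAAT was in 33.8% of all windows, TGACG in 17.8% and TATAAA in 12.4%. The GC content was 64.4% and 50.8% for the Gabrb1 windows, 64.8% for Gria2 and 62.4% for Glrb, against a median of 52.4% over all windows. These matches are descriptions of the letters and not binding sites.

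The other 9 GABA-A receptor genes never reached 16, with values from 1.30 to 2.40. Gabra2, an alpha subunit of the same receptor, was called lower within the low band. It stood at 1.78, 1.70, 1.74 and 1.83 in GCP 1 to 4, at 1.46, 1.47, 1.46, 1.41 and 1.32 in pretumor 1 to 5, and at 1.47, 1.43, 1.42, 1.30 and 1.41 in tumor 1 to 5. The GCP arrays lay above all others, and pretumor and tumor arrays overlapped. The mean fell by 0.34 in pretumor (95% interval -0.42 to -0.25, adjusted p = 0.000718) and by 0.35 in tumor samples (95% interval -0.44 to -0.27, adjusted p = 0.000351) against GCP. Its highest intensity on any array was 3.55, no fold is given, and with values below 16 raised to 16 nothing was left to test.

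Gabra6, the alpha subunit of mature granule neurons, was measured by a pair of probe sets. The one that represents it ran from 1.44 to 2.40 (adjusted p = 0.224 in tumor against GCP and 0.294 in tumor against pretumor). The other stood at 2.68, 3.24, 2.19 and 1.99 in pretumor 1, 3, 4 and 5, at 1.46 in pretumor 2 and at 1.30, 1.36, 1.77 and 2.25 in GCP 1 to 4, while all tumor arrays were at 1.51 or below. It differed by -0.97 in tumor against pretumor (adjusted p = 0.176). Both stayed in the low band on all arrays. Gabra3, Gabrb2, Gabrd (an extrasynaptic subunit of granule neurons), Gabrg1, Gabrg3 and the rho subunits Gabrr1 and Gabrr2 were not called in any comparison.

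Some of these genes are neighbours in the genome. Gabrg1 and Gabra2 are adjacent on chromosome 5, with Gabrb1 2 protein-coding genes further on. Their differences in tumor against pretumor were -0.21 for Gabrg1, -0.02 for Gabra2 and -1.50 for Gabrb1. Gabra6 and Gabrb2 are adjacent on chromosome 11, and Gabrr1 and Gabrr2 on chromosome 4. On chromosome 3 Gria2 and Glrb, both above 16 on every array, have no protein-coding gene between them.

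**Figure D2:**
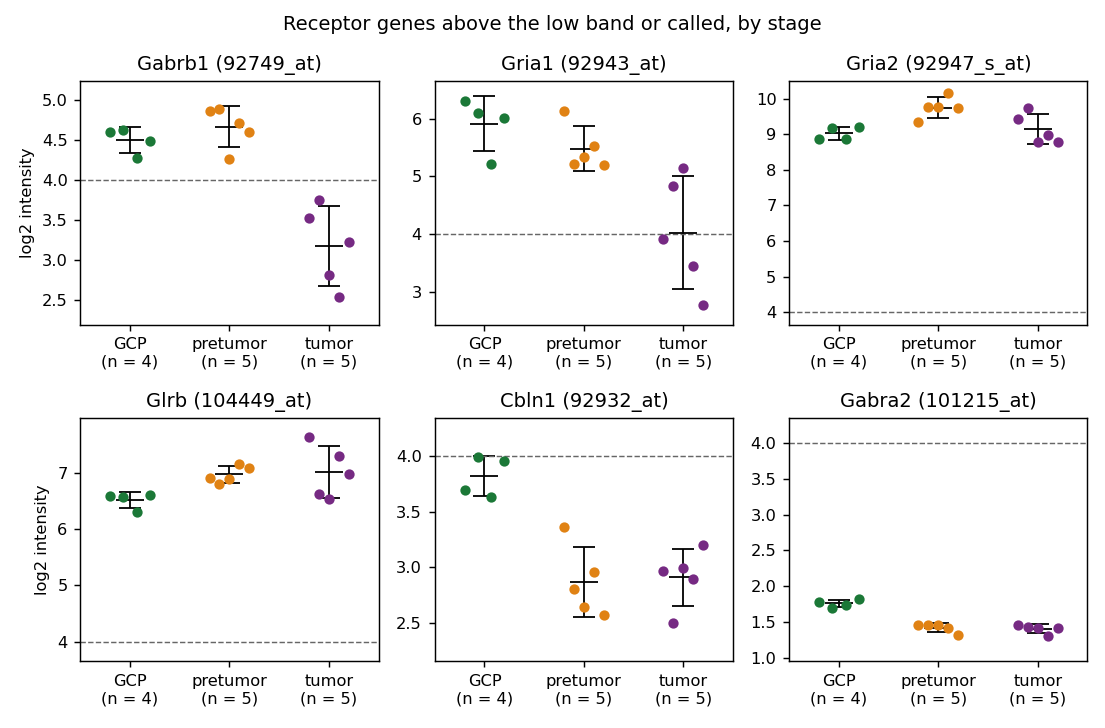
Log2 intensity of the 4 receptor genes that reached 16 and of Cbln1 and Gabra2 by stage; points are arrays, bars are the mean ± SD, the dashed line marks intensity 16, and the vertical axes differ and do not start at 0. The tumor points of Gabrb1 lie below all points of the other stages, and the GCP points of Cbln1 and Gabra2 lie above all later ones.

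Gria1 and Gria2 encode AMPA receptor subunits, and receptors that hold the edited Gria2 subunit pass little calcium. Gria1, by the probe set with its highest mean, stood at 6.30, 6.11, 5.22 and 6.02 in GCP 1 to 4 and at 6.13, 5.21, 5.33, 5.52 and 5.19 in pretumor 1 to 5. In tumor 1 to 5 it stood at 3.92, 4.84, 5.14, 3.45 and 2.78. Tumor arrays lay below all GCP and pretumor arrays, by a narrow margin for tumor 3, and 3 of the 5 were in the low band. The means were 5.91 ± 0.48, 5.48 ± 0.39 and 4.03 ± 0.98. Against GCP, tumor samples were lower by 1.89 (95% interval -2.85 to -0.93, adjusted p = 0.0308). With the 3 tumor arrays in the low band raised to 16 the fall was at least 2.86-fold. Against pretumor they differed by -1.45 (95% interval -2.36 to -0.55, adjusted p = 0.16), which did not pass. Of 27 alternative settings only array weights brought this difference past the threshold (adjusted p = 0.0249). Pretumor and GCP samples differed by -0.43 (95% interval -1.39 to 0.53, adjusted p = 0.771). The call against GCP ended without any 1 of GCP 1, GCP 2, GCP 4, tumor 1 or tumor 4 (adjusted p = 0.0912, 0.0876, 0.0904, 0.0653 and 0.0773). It also ended with the compared groups fitted alone (adjusted p = 0.118) and with the GCP pairs averaged (adjusted p = 0.199), within a range of 0.00359 to 0.199 over 27 settings.

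The other probe set of Gria1 never reached 16 and had means of 2.21 ± 0.36, 1.64 ± 0.15 and 1.46 ± 0.21. It was lower in tumor than in GCP samples (a log2 difference of -0.75, adjusted p = 0.0182). Its pretumor value differed from GCP by -0.57 (adjusted p = 0.0691). In the same comparison 7 of 11 astrocyte and Bergmann glia markers fell, with the sums given for Gabrb1, and their part in the Gria1 result was not tested.

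Gria2 was measured by 4 probe sets. The one that represents it stood at 8.86, 9.17, 8.86 and 9.22 in GCP 1 to 4 and at 9.34, 9.76, 9.77, 10.15 and 9.74 in pretumor 1 to 5. In tumor 1 to 5 it stood at 9.43, 9.73, 8.79, 8.99 and 8.78. The pretumor arrays lay above all GCP arrays, and tumor 1 and tumor 2 lay among the pretumor arrays while tumor 3, 4 and 5 lay among or below the GCP arrays. Pretumor samples differed from GCP by 0.73 (95% interval 0.27 to 1.18, adjusted p = 0.0793), 1.66-fold, which missed the threshold. It was past the threshold with quantile normalization (adjusted p = 0.0418), on probe sets at 16 or more on at least 4 arrays (0.0347), with the compared groups alone (0.0398), with array weights (0.0092) and without tumor 2 (0.0368). Tumor samples differed from GCP by 0.12 (95% interval -0.34 to 0.58, adjusted p = 0.925) and from pretumor by -0.61 (95% interval -1.04 to -0.18, adjusted p = 0.223). The difference from pretumor was past the threshold only with array weights (adjusted p = 0.0312).

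The second probe set by level differed by 0.55 in pretumor against GCP (6.22 ± 0.18 to 6.78 ± 0.39, adjusted p = 0.358) and the third by 0.47 (4.83 ± 0.27 to 5.30 ± 0.31, adjusted p = 0.222). The last was at the floor on all arrays. None of these passed. The AMPA subunits Gria3 and Gria4 stayed between 1.30 and 1.77 and were not called.

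**Figure D3:**
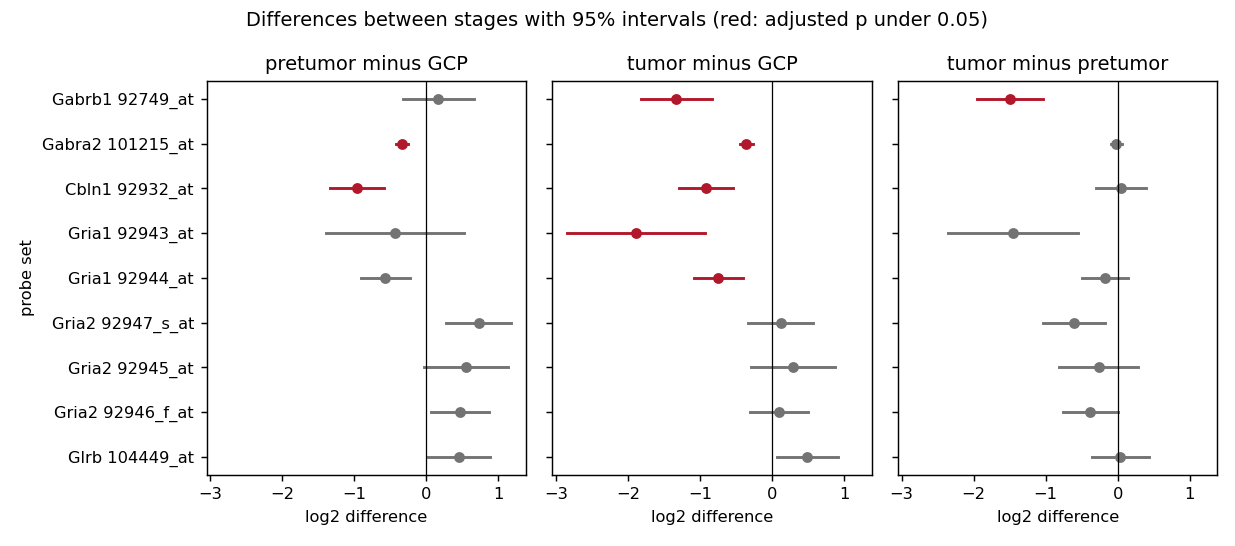
Log2 differences (points) with 95% intervals (lines) between stages for 9 probe sets of the 6 receptor genes described one by one; red marks an adjusted p under 0.05. Gabrb1 is red in both comparisons of the tumor, and the 3 Gria2 probe sets shown lie right of 0 in pretumor against GCP without passing.

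The other glutamate receptor genes stayed in the low band and were not called in any comparison. The NMDA subunits Grin2a, Grin2b, Grin2c and Grin2d, which bind glutamate and set the kinetics of the channel, ran from 1.53 to 2.77. Their differences lay between -0.08 and 0.13 over the 3 comparisons. Grin2c, the subunit of mature granule neurons, stood at 2.43 ± 0.12, 2.36 ± 0.07 and 2.48 ± 0.17. The kainate subunits Grik1, Grik2 and Grik5 ran from 1.30 to 3.63, with Grik1 at the floor on all arrays. Grik2 spread most widely in tumor samples, at 3.63, 2.34, 1.53, 2.90 and 3.06 in tumor 1 to 5, a range that holds the means of GCP (2.93 ± 0.21) and pretumor (2.65 ± 0.32). Grid1, a delta subunit of the glutamate receptor family, and Grm8, a presynaptic metabotropic receptor, reached at most 1.99 and 1.85.

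Cbln1 is secreted by granule neurons and bridges their axons to the delta receptor of Purkinje cells. It was lower at both later stages, with all values under 16 and only the GCP arrays near it. It stood at 3.69, 4.00, 3.64 and 3.96 in GCP 1 to 4, at 3.36, 2.80, 2.64, 2.96 and 2.57 in pretumor 1 to 5, and at 2.96, 2.50, 2.99, 2.89 and 3.20 in tumor 1 to 5. The GCP arrays lay above all later ones. The mean fell by 0.96 in pretumor (95% interval -1.33 to -0.58, adjusted p = 0.00819) and by 0.91 in tumor samples (95% interval -1.29 to -0.54, adjusted p = 0.00946) against GCP, from 3.82 ± 0.18 to 2.87 ± 0.32 and 2.91 ± 0.26. Tumor and pretumor samples differed by 0.04 (95% interval -0.31 to 0.39, adjusted p = 0.979). As all values were under 16, no fold is given and the difference was nil with values raised to 16; with the GCP pairs averaged both calls ended (adjusted p = 0.0772 and 0.0861). Of 9 markers of postmitotic granule neurons 3 fell against GCP at both later stages, Neurod1, Cntn1 and Kcnd2, and the others were not called. Tubb3 and Nrcam were level between GCP (10.35 and 5.31) and pretumor samples (10.42 and 5.34). The list's median difference from GCP was -0.56 in pretumor and -0.74 in tumor samples. Its summed intensity was 12300 to 13700, 5806 to 8773 and 4082 to 8014 on GCP, pretumor and tumor arrays. The highest gene in that sum was Neurod1, itself called, at 12.83 ± 0.09, 11.45 ± 0.40 and 11.58 ± 0.46. Calb2 and Neurod2 of that list never reached 16. The part of these cells in the Cbln1 result was not tested.

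Glrb encodes the beta subunit of the glycine receptor, which anchors the receptor to gephyrin at the synapse. It stood at 6.58, 6.57, 6.30 and 6.60 in GCP 1 to 4, at 6.90, 6.80, 6.89, 7.16 and 7.09 in pretumor 1 to 5, and at 7.63, 6.61, 6.52, 7.29 and 6.97 in tumor 1 to 5. All pretumor arrays lay above all GCP arrays, and the tumor arrays overlapped both. Pretumor samples differed from GCP by 0.45 (95% interval 0.03 to 0.88, adjusted p = 0.281) and tumor samples by 0.49 (95% interval 0.07 to 0.92, adjusted p = 0.231), neither of which passed. Pretumor against GCP was past the threshold with the compared groups fitted alone (adjusted p = 0.0327). Glra1, the alpha subunit of the adult spinal receptor, ran from 1.76 to 2.08 in the low band, so the subunit that binds gephyrin was measured above 16 while this partner was not.

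The 10 acetylcholine receptor genes all stayed in the low band and none was called. The nicotinic genes ran from 1.30 to 2.59. They comprise the neuronal subunits Chrna6, Chrna7 and Chrnb2 and the muscle subunits Chrna1, Chrnb1, Chrnd, Chrne and Chrng. Their differences lay between -0.09 and 0.10 over the 3 comparisons. The muscarinic receptors Chrm1 and Chrm4 ran from 1.30 to 1.87, with differences between -0.04 and 0.06. Chrnd and Chrng, the delta and fetal gamma subunits of muscle, are adjacent on chromosome 1.

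Genes that anchor these receptors, or make, move and clear their transmitters, were taken from 5 lists, of which 55 genes were measured. limma called 3 of 55 lower and 0 higher in pretumor against GCP (5.45%) and the same count in tumor against GCP (5.45%), close to the 5.24% and 5.62% of all genes called. In tumor against pretumor it called 0, and 12 had an unadjusted p under 0.05, a limit for which no share of all genes is given. The 3 genes were Gad1, Slc32a1 and Homer2 in each comparison against GCP. The count in pretumor against GCP was 6 without tumor 1, 2 higher and 4 lower, and with array weights 13, 7 higher and 6 lower, and that in tumor against pretumor was 1 without tumor 1 or without pretumor 2. Gad1, which makes GABA, stood at 6.37 ± 0.77, 3.50 ± 0.81 and 2.10 ± 0.59. It fell at both later stages (adjusted p = 0.0048 in pretumor and 0.00028 in tumor). With the GCP pairs averaged the adjusted p in pretumor was 0.0514. The fall was at least 5.16-fold in tumor samples. In pretumor samples 1 array, pretumor 3, lay above 16, at 4.58 on the log2 scale. With values below 16 raised to 16 the pretumor difference from GCP was -2.25.

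Slc32a1, which loads GABA and glycine into vesicles, had means of 2.84 ± 0.32, 2.17 ± 0.30 and 1.89 ± 0.05, all in the low band, and fell at both later stages (differences of -0.67 and -0.95, adjusted p = 0.0337 and 0.00488). The first of these calls ended without any 1 of GCP 2, GCP 3, GCP 4, pretumor 2, pretumor 4 or pretumor 5 (adjusted p = 0.0729, 0.109, 0.102, 0.0877, 0.0739 and 0.0718), and without pretumor 3 and tumor 2 together (0.0539). It also ended with the compared groups alone (0.0986) and with the GCP pairs averaged (0.147). Homer2, a scaffold of metabotropic glutamate receptors, stood at 4.57 ± 0.14, 3.60 ± 0.20 and 3.75 ± 0.34 and fell at both later stages (adjusted p = 0.00546 and 0.0135). The fall was at least 1.48-fold in pretumor samples. In tumor samples, where tumor 5 stood at 4.27, the log2 difference was -0.82. Both Homer2 calls ended with the GCP pairs averaged (adjusted p = 0.0679 and 0.121), and the call in tumor against GCP also with the compared groups fitted alone (adjusted p = 0.0601). Gad1 and Slc32a1 are themselves markers of inhibitory interneurons. Of the 11 measured markers of these cells 4 fell in each comparison against GCP, Gad1 and Slc32a1 among them with Lhx5 and Tfap2b. Others did not follow: Lhx1 stood at 3.31 ± 0.13, 4.32 ± 0.54 and 3.66 ± 0.64 (adjusted p = 0.124 in pretumor against GCP) and Pvalb at 2.65 ± 0.27, 2.99 ± 0.30 and 3.38 ± 0.99 (adjusted p = 0.825). Without Gad1 and Slc32a1 the summed intensity of the remaining 9 was 66.17 to 73.94 on GCP, 69.73 to 91.58 on pretumor and 67.16 to 126.8 on tumor arrays, ranges that overlap. With them it was 129.5 to 218.6, 80.16 to 120.5 and 78.52 to 134. The highest gene of the remaining 9 was Kit, at 4.97 ± 0.09, 4.83 ± 0.20 and 5.33 ± 0.50. Tumor 3 was the highest array for both Kit (6.05) and Pvalb (5.06). Lhx1, Lhx5 and Pvalb were also on the list of Purkinje cell markers. Of the 11 interneuron markers, 7 never reached 16 (Gad2, Slc32a1, Pax2, Lhx5, Sst, Npy and Tfap2b). The part of these cells was not tested.

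By list, 1 of 15 glutamate receptor scaffold and auxiliary genes (Homer2) and 2 of 11 glutamate and GABA synthesis and transport genes (Gad1 and Slc32a1) fell in each comparison against GCP. Of 13 genes that cluster or traffic GABA, glycine and acetylcholine receptors, 9 glycine and acetylcholine synthesis and transport genes and 7 chloride transporters, 0 were called by limma in each comparison, and before adjustment 5, 2 and 2 had a p under 0.05 in pretumor against GCP, 4, 4 and 0 in tumor against GCP and 4, 3 and 1 in tumor against pretumor. The share of all genes at that unadjusted limit was not counted. Gabarap, a GABA-A receptor trafficking protein, stood at 10.66 ± 0.14, 10.47 ± 0.09 and 10.29 ± 0.26. Gcsh, of the glycine cleavage system, stood at 8.90 ± 0.14, 8.80 ± 0.12 and 8.68 ± 0.34, and the chloride carrier Clcn3 at 9.58 ± 0.10, 9.52 ± 0.04 and 9.44 ± 0.23. Slc12a2, which imports chloride and makes GABA excitatory in young neurons, stood at 9.10 ± 0.07, 9.72 ± 0.31 and 9.11 ± 0.47 and was not called (adjusted p = 0.173 in pretumor against GCP). Slc12a5, the chloride exporter of mature neurons, stayed in the low band at 1.73 ± 0.06, 1.66 ± 0.04 and 1.68 ± 0.08. These last 2 genes were named after their values were seen.

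**Figure D4:**
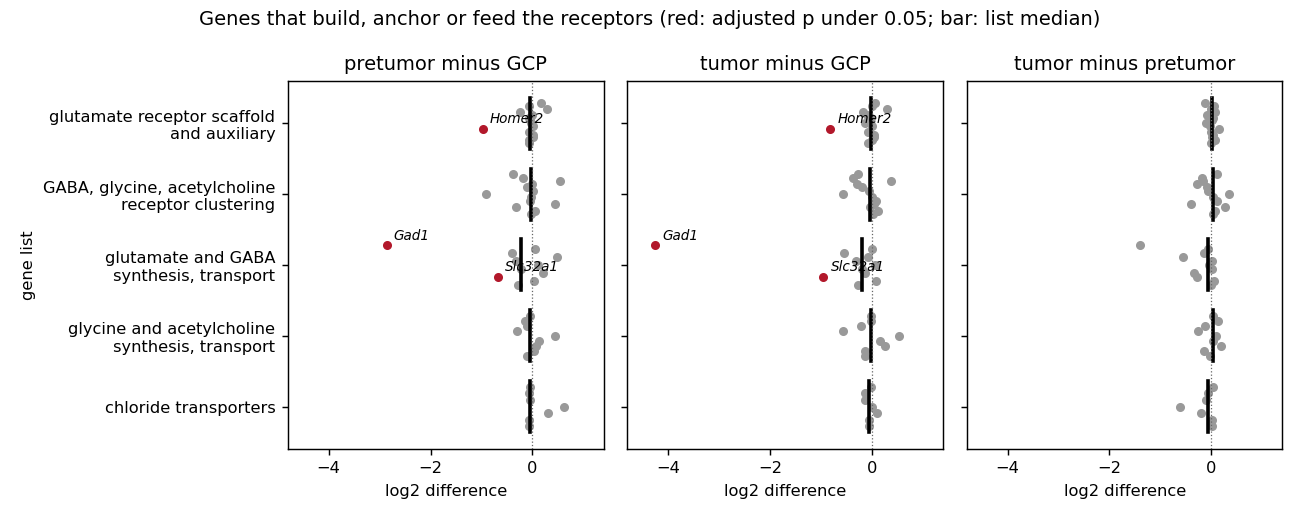
Log2 differences between stages for the 55 associated genes by list; each point is 1 gene, red marks an adjusted p under 0.05 and the black bar is the list median. Gad1, Slc32a1 and Homer2 are red and left of 0 in both comparisons against GCP, and no gene is red in tumor against pretumor.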

How the data were processed

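RNA of 14 samples was measured on 1 expression array each. The values deposited by the authors are intensities on a linear scale, 1 for each probe set and array; the sources used here do not give how they were summarised or normalised. Array medians lay within 0.094 log2 units, under the limit of 0.2 set for further normalization, so none was applied. The 66 control probe sets were left out. Intensities under the table's 10th percentile (2.46) were raised to it, and all were taken to log2; 403 probe sets were then constant and could not be called. Group means were fitted over 12422 probe sets with limma 3.58.1 in R 4.3.3 (lmFit, eBayes, 11 residual and 0.83 prior degrees of freedom), with two-sided Benjamini-Hochberg adjusted p-values called under 0.05. The test was checked on simulated data with known changes only in probe sets well above the low band. That check does not cover calls within or near the band. Precision is limited by the number of arrays.

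Symbols came from the platform's annotation: 10833 probe sets had 1 symbol, 396 several and 1193 none, and all 36 receptor symbols were in the GRCm38.p6 gene table. A gene is represented by its probe set with the highest mean. Where 1 mean lay below 16 a fold is a lower bound against 16, and where both did none is given. For Gria1, with only some tumor arrays below 16, those arrays were raised to 16. For Gad1 in pretumor and Homer2 in tumor samples 1 array reached 16, and a log2 difference is given in place of a fold. All receptor genes could be named; those called or with a group mean of 16 or more were described array by array. Of associated and marker lists, up to 3 called genes or the one with the highest mean were named. Other called markers, some uncalled markers and markers that never reached 16 were named after their values were seen. The members and lists were chosen with earlier results of these data known. Alternatives were other floors, pseudocounts, normalizations, filters and fits, a replicate block, and each array left out.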

Additional observations from a re-analysis of the deposited data

Results flagged for a closer look

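Each of 102 sets of values, 1 receptor gene in 1 group, was searched for an array far from the rest of its group. There were 6, and chance gives about 1 in 20 sets of values that are not tied. That rate does not hold where the other arrays are tied at the floor, as for Gabra3 and Gria3 in pretumor samples. In 1 of them the gene was above the low band: Glrb in GCP 3 stood at 6.30 against 6.57 to 6.60 on the other GCP arrays. The others lay within the low band. Chrnd in tumor 4 was at 1.57 against 1.48 to 1.50, Gabra3 in pretumor 3 at 1.45 and Gria3 in pretumor 3 at 1.30 with all other pretumor arrays at the floor for both, Gria3 in tumor 1 at 1.77 against 1.30 to 1.36, and Grin2d in GCP 4 at 1.71 against 1.91 to 1.94.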

How the results depend on the processing

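With a floor at 16 the called receptor genes numbered 0 in pretumor against GCP and 1 in tumor against GCP. With only probe sets at 16 or more on at least 4 arrays they numbered 1 (higher) and 2. With the compared groups alone there were 4 in pretumor against GCP, 2 higher and 2 lower. With the GCP pairs averaged, a setting chosen after seeing the data, there were 1 and 1, and 0 associated genes in pretumor against GCP. With array weights there were 3 receptor genes in tumor against pretumor, Gabrb1, Gria1 and Gria2. Associated genes then numbered 13, 9 and 3 over the 3 comparisons in the order pretumor against GCP, tumor against GCP, tumor against pretumor. Of these, 7 of the 13 and 3 of the 9 were higher. With quantile normalization the associated genes were 5 in pretumor against GCP and 1 in tumor against pretumor. The cause was not tested.

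Leaving out each array in turn gave 2 to 3, 3 to 4 and 1 to 1 receptor genes over the comparisons in that order, and 2 to 6, 3 to 4 and 0 to 1 associated genes. Without pretumor 3 and tumor 2, also chosen after seeing the data, there were 2, 4 and 1 receptor genes. The uncalled difference of Gria2 in tumor against GCP turned to -0.031 with array weights, and to -0.0267 without tumor 2, alone or with pretumor 3, with values up to 0.2112 over single arrays left out. That of Glrb in tumor against pretumor ran from -0.12 to 0.16 over single arrays left out, below 0 without pretumor 2, tumor 1 or tumor 4. With limits of 8 and 32 in place of 16, 30 and 33 receptor genes never reached the limit by their representative probe set. With all probe sets of a gene counted, 32 never reached 16.

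Same-numbered samples do not share a source in the labels, and the correlation of their deviations from the group means ran from -0.32 to 0.51 over 13 pairs, with 2 of 14 arrays closest to their own number. With a replicate block the called receptor genes were 2, 3 and 1. Gria1 in tumor against GCP was then not called (difference -1.69, adjusted p = 0.0944), nor was Slc32a1 in pretumor against GCP (difference -0.64, adjusted p = 0.118).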

Other observations

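Marker lists of other cell types were measured on the same arrays. Of all genes 5.24% were called in pretumor against GCP, 5.62% in tumor against GCP and 1.09% in tumor against pretumor. Of 12 microglia markers 2 rose against GCP at both later stages, Ctss and Lyz2, and 8 never reached 16. Of 9 endothelium and pericyte markers 4 fell in pretumor and 5 in tumor samples against GCP. Of these 9, 7 never reached 16, the called genes Cdh5, Tek and Kdr among them. Of 4 choroid plexus markers 1 rose in pretumor against GCP and 2 fell in tumor against pretumor. Of 11 Purkinje cell markers 1 rose and 1 fell in pretumor against GCP, 1 fell in tumor against GCP, and Calb1 fell in tumor against pretumor; 6 of the 11 never reached 16, Pcp2 and Pcp4 among them. Of the unipolar brush cell markers measured, Eomes fell against GCP at both later stages and Calb2 stayed in the low band. Of 12 granule cell precursor markers 1, Pax6, fell against GCP at both later stages.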
